A study of Rattus norvegicus with 4 samples.

Results

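The matrix metalloproteinases (MMPs), the related ADAM and ADAMTS proteases, the ADAMTS-like proteins and the tissue inhibitors of metalloproteinases (TIMPs) were followed in cultured neonatal rat ventricular cardiomyocytes with and without phenylephrine (PE). Members were the protein-coding genes whose symbol begins with Mmp, Timp or Adam and a digit, or with Adamts. This gave 74 of the 32883 genes in the count table. Of the 74, 54 had at least 15 counts summed over the libraries, 4 had between 1 and 14, and 16 had none.

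The cells came from the cardiac ventricle of Sprague-Dawley rats at postnatal day 2, after a plating step meant to remove other cell types, and were grown in medium with serum. PE, an agonist of alpha-1 adrenergic receptors that is widely used to induce hypertrophy in such cells, was given at 20 µM for 24 h, and the control cells were untreated. There were 2 libraries of each, named P1 and P2 with PE and C1 and C2 for the controls after the replicate numbers of the labels. Transcripts were measured by strand-specific RNA-seq after depletion of ribosomal RNA. Whether the replicates were separate cultures is not in the labels, so each p-value speaks for the spread of these libraries alone, and that spread may be technical.

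MMPs are zinc-dependent proteases that cut collagens, proteoglycans and other matrix proteins, and TIMPs bind and block them. ADAMs are membrane proteases that release the outer part of growth factors and receptors from the cell surface, and ADAMTS enzymes are secreted relatives that cut proteoglycans, process procollagens or act on microfibrils. In the heart these proteins are known for the remodelling of the matrix during growth and disease, and fibroblasts as well as cardiomyocytes make them.

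Library totals ranged from 45637881 to 56948370 counts. The 13 mitochondrial protein genes made up 6.04% of the counts of C1, 11.2% of C2, 4.49% of P1 and 4.62% of P2. All 10 cardiomyocyte markers were present in each library, and the lowest value was that of Nkx2-5 at 65.9 CPM, the counts of a gene scaled to a common library size. Of these markers 2 rose and 8 did not pass, with a median log2 fold change of -0.164. Their summed level was 16204 and 16800 CPM in the controls and 16529 and 17828 CPM with PE. Other cell types were present too. The summed level of 10 fibroblast markers was 18343 and 16455 CPM in the controls and 10295 and 10195 CPM with PE. Of the 9 that were tested, 2 fell and 7 did not pass, and their median log2 fold change was 0.038. Col1a1, Col3a1 and Postn made up most of the sum. Col1a2 was nearly absent, at 0.0178 to 0.0932 CPM, and of the endothelial markers Robo4 was at 0.0219 to 0.0636 CPM and Pecam1 had no match by symbol. Of 8 tested endothelial markers 5 fell, with summed levels of 225.3 and 223.8 CPM in the controls and 135.6 and 140.8 CPM with PE. Of 10 macrophage and leukocyte markers 3 fell (319.1 and 362.5 CPM against 237.7 and 212.4 CPM), and of 7 mesothelial and epicardial markers 3 fell and 1 rose (225.5 and 191.7 CPM against 123.7 and 132.2 CPM). Among 9 markers of smooth muscle and pericytes 2 rose and 2 fell (1804 and 1333 CPM against 1396 and 1651 CPM). Of 6 neutrophil markers Mpo, Elane and Cxcr2 had no count, S100a8 had 3 counts, in P1 alone, and S100a9 had 1, in C1 alone. Csf3r had 13 and 12 counts in the controls and 10 and 16 with PE, and did not pass. The part of these cells in the values below was not tested, and in bulk RNA fewer cells of a type cannot be told apart from less RNA per cell.

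Part of the family lies in 1 run of neighbouring MMP genes, and the 5 of them with at least 15 counts are shown first. Their upstream sequences share a short element. Of the 5, 2 rose with PE, 1 was counted as lower and 2 did not pass. The stretches below are 100 bases long, end before the transcription start, and are taken from RefSeq on build GRCr8, all on the plus strand. Capitals mark the letters of the AP-1 element, TGAGTCA or its reverse complement TGACTCA, which is bound by Fos and Jun proteins.
Mmp13, chr8:12782706-12782805: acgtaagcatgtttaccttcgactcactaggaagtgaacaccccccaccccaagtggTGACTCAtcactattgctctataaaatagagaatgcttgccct
Mmp12, chr8:12866508-12866607: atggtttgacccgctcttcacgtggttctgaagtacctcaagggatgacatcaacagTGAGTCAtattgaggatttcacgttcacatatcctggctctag
Mmp3, chr8:12925153-12925252: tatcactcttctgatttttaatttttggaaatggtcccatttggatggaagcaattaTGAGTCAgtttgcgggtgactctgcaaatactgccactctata
Mmp10, chr8:12974589-12974688: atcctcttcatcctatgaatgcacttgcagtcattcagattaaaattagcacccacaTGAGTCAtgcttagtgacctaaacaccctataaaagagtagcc
Mmp7, chr8:13132906-13133005: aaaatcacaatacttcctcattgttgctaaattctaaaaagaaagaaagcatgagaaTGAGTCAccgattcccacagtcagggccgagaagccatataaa

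The first base of the element stood at -66 in Mmp13, -87 in Mmp12, -71 in Mmp3, -61 in Mmp10 and -80 in Mmp7, counted from the base before the start as -1. Both forms were searched in the 250 bases before the start, which covers both strands. They were found in 7 of the 50 members with a sequence (14%) and in 4.42% of the 27457 genes of the table. The remaining members with the letters were Mmp1, which lies in the same run and had no count, and Adam19. Of the 7, only Adam19 lies outside that run. Mmp3 and Mmp10 rose with PE, and Mmp12, Mmp13 and Adam19 did not pass the test. Mmp7 was counted as lower, but was tested only because it was higher in the controls. Whether the letters have a part in the response was not tested. A match is a description of the sequence and not of binding.

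Of the 74 members, 52 had enough counts for edgeR's quasi-likelihood test, and 24 of these changed with PE at an adjusted p under 0.05, taken over all 15257 genes tested. In all tested genes 15.7% changed. Of the members 11 rose (7.39% of all tested genes did) and 13 fell (8.3% of all tested genes did), and 28 did not pass. Without P1 6 rose and 7 fell, and without P2 7 rose and 7 fell. Differences of at least 2-fold were seen in 8 of the members that rose and 8 of those that fell. The median size of the log2 fold change, whatever its sign, was 0.70 in the tested members and 0.30 in all tested genes. 3 of the tested genes, Mmp7, Adam22 and Adamts16, reached the count filter in the controls alone. Mmp7, counted among the 13 that fell and the 2-fold falls, was thus tested only because it was higher there. The authors' deposited table holds 23 members at an adjusted p under 0.05, all among these 24, and there Mmp7 was at an adjusted p of 0.0561.

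**Figure D1:**
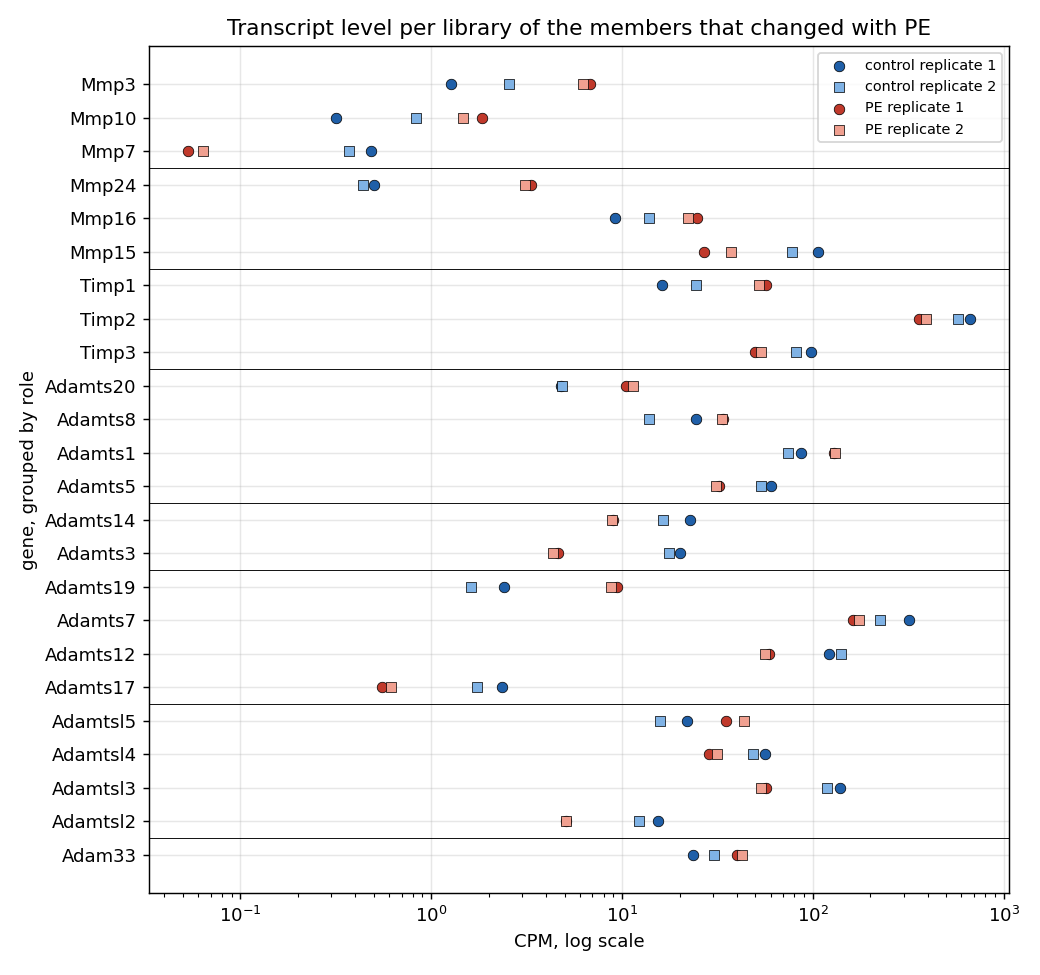
Level of the 24 members that changed, as CPM on a log axis, for each library (blue, control; red, PE; circles, replicate 1; squares, replicate 2), grouped by role. In all 24 genes, which were picked by the test, the PE libraries lie on 1 side of the control libraries. This was so in 36 of the 52 tested members and in 56.7% of all tested genes. CPM is not scaled by transcript length, so levels compare only within a gene.

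Among secreted MMPs the stromelysins rose. The matrilysin was counted as lower, from few counts. Mmp3 (ENSRNOG00000032626), stromelysin 1, cuts proteoglycans and fibronectin and activates other MMPs. It was at 1.27 and 2.57 CPM in C1 and C2 and at 6.82 and 6.23 CPM in P1 and P2. Both PE libraries were above both controls, and the control libraries differed from each other more than the PE libraries did. The log2 fold change was 1.78 ± 0.31 (SE; adjusted p = 0.00354), a 3.43-fold rise. Mmp10 (ENSRNOG00000032832), stromelysin 2, had 17 and 38 counts in the controls and 104 and 69 with PE, or 0.317, 0.834, 1.85 and 1.46 CPM. The groups did not overlap, and C1 was the lowest of the 4 libraries. The change was 1.55 ± 0.45 on the log2 scale (adjusted p = 0.0428). It was at 1.00 without C1 (adjusted p = 0.0605), 2.38 without C2 and 1.36 without P1 (adjusted p = 0.14).

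Mmp7 (ENSRNOG00000010507), matrilysin, an MMP of epithelia that lacks the hemopexin domain, was scarce. It had 26 and 17 counts in the controls and 3 in each PE library. The count filter, at 0.2 CPM, was reached in the controls alone, so Mmp7 was tested only because it was higher there. Its log2 fold change was -2.84 ± 0.68 (adjusted p = 0.0177), and DESeq2 did not call it (adjusted p = 0.0561). Nor was it called without C1 (adjusted p = 0.0566), P1 (adjusted p = 0.165) or P2 (adjusted p = 0.103).

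The gelatinases, which cut denatured collagen and basement membrane collagen, did not pass. Mmp2 (ENSRNOG00000016695), gelatinase A, was at 1478 and 1184 CPM in the controls and at 1518 and 1523 CPM with PE. The PE libraries were close to each other and to C1, and C2 was the low library. Its log2 fold change was 0.19 ± 0.18 (95% interval -0.21 to 0.59, adjusted p = 0.541). It was 0.37 without C1 and 0.04 without C2. Mmp9 (ENSRNOG00000017539), gelatinase B, was at 34.1 and 26.6 CPM in the controls and at 30.0 and 25.1 CPM with PE, and the groups overlapped. The log2 fold change was -0.14 (95% interval -0.56 to 0.29), and 0.06 without C1.

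Mmp12, the macrophage metalloelastase, was at 50.6 and 87.2 CPM in the controls and at 66.9 and 45.6 CPM with PE, so the groups overlapped widely. Mmp13, the main interstitial collagenase of rodents, was at 0.764 and 1.71 CPM against 1.03 and 0.424 CPM. In both genes C2 was the highest library and P2 the lowest. Their log2 fold changes of -0.29 ± 0.26 and -0.74 ± 0.51 did not pass. Mmp12 was at -0.63 without C1 (adjusted p = 0.000372) and at 0.16 without C2, and Mmp13 at -1.20 without C1 (adjusted p = 0.0229) and at -0.05 without C2. Mmp19 was nearly level, at 34.8 and 33.4 CPM against 32.5 and 37.1 CPM. Mmp1, Mmp1b, Mmp11, Mmp20 and Mmp28 had no count, and Mmp8, Mmp21 and Mmp27 had 3, 4 and 4 counts in all. Chchd10, which overlaps Mmp11 in the RefSeq table, was also at 0 in all 4 libraries, so the 0 of Mmp11 is uncertain. Of the 8 secreted MMPs tested, 2 rose, 1 fell and 5 did not pass (median log2 fold change -0.05, against -0.006 in all tested genes), and 1 was called without P1.

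The membrane-anchored MMPs, which act at the cell surface, held the largest rise among the members that changed. Mmp24 (ENSRNOG00000047028), a membrane-type MMP known from neurons that can cut N-cadherin, had 27 and 20 counts in the controls and 188 and 147 with PE. In CPM these were 0.503 and 0.439 against 3.35 and 3.11. The replicates were close within each group and far apart between groups. The rise was 6.81-fold (log2 fold change 2.77 ± 0.31, adjusted p = 0.000266), and it was between 2.68 and 2.88 with any 1 library left out. RefSeq lists Mmp24os as overlapping it, which was not analysed here. Mmp16 (ENSRNOG00000005708) was at 9.13 and 13.9 CPM in the controls and at 24.6 and 22.2 CPM with PE. It rose by 1.03 ± 0.22 on the log2 scale (adjusted p = 0.0111), but did not pass without P1 (0.96, adjusted p = 0.0546).

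Mmp15 (ENSRNOG00000012622), also a membrane-type collagen-degrading enzyme, went the other way. It was at 106.0 and 77.4 CPM in the controls and at 27.0 and 37.3 CPM with PE, with no overlap. It fell by 1.51 ± 0.22 on the log2 scale (adjusted p = 0.00111), or 2.85-fold. Mmp14 (ENSRNOG00000010947), the activator of the Mmp2 proenzyme, was at 1449 and 1103 CPM in the controls and at 937.5 and 983.7 CPM with PE. Both PE libraries were below both controls, yet the difference of -0.41 ± 0.19 did not pass (95% interval -0.82 to 0.006, adjusted p = 0.18). It was at -0.19 without C1 and at -0.59 without C2, where the spread was taken from the PE libraries alone. Mmp17 and Mmp23 had log2 fold changes of -0.26 and -0.20 with overlapping groups. They were at 0.17 and 0.10 without C1, and at -0.59 and -0.44 without C2 (adjusted p = 0.00928 and 0.0304). Of the 6 membrane-anchored MMPs, 2 rose, 1 fell and 3 did not pass (median -0.23). The count called moved with the library left out, as did that of all genes.

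The inhibitors changed in opposite directions. Timp1 (ENSRNOG00000010208), a soluble inhibitor that also binds the Mmp9 proenzyme, was at 16.2 and 24.3 CPM in the controls and at 56.8 and 52.0 CPM with PE. Both PE libraries were above both controls. It rose 2.68-fold (log2 fold change 1.42 ± 0.21, adjusted p = 0.00128), and was at 1.17 without C1 and 1.74 without C2. Timp2 (ENSRNOG00000003148), which forms the complex with Mmp14 that activates the Mmp2 proenzyme, was at 666.0 and 577.3 CPM in the controls and at 358.5 and 389.5 CPM with PE. It fell by 0.73 ± 0.17 (adjusted p = 0.0143). Timp3 (ENSRNOG00000004303), the matrix-bound inhibitor that also blocks Adam17 and several ADAMTS enzymes, was at 97.9 and 81.4 CPM against 49.6 and 53.3 CPM. The groups were apart for Timp2 and for Timp3, which fell by 0.80 ± 0.17 (adjusted p = 0.00948).

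The 2 falls were not called when a PE library was left out. Timp2 was then at -0.67 (adjusted p = 0.354) without P1 and at -0.79 (adjusted p = 0.204) without P2, and Timp3 at -0.75 and -0.85 (adjusted p = 0.255 and 0.151). Timp4, the inhibitor known for high levels in adult heart, had 11 and 3 counts in the controls and 1 and 0 with PE, too few for a test.

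TIMP genes share their place with others. In the RefSeq table Timp1, Timp3 and Timp4 overlap Syn1, Syn3 and Syn2, and Timp2 overlaps Cep295nl. Syn1 was at 0.318 to 0.484 CPM and did not pass (log2 fold change -0.27). Syn3 had 44 and 25 counts in the controls and 10 in each PE library, and fell by 1.81 ± 0.52 (adjusted p = 0.0396), the same direction as Timp3 at far fewer counts. Syn2 rose, from 37 and 42 counts to 152 and 147 (adjusted p = 0.00247). Cep295nl was at -0.40 and did not pass. The strand setting of the counting is not given in the sources used here, so reads in the overlaps are uncertain.

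**Figure D2:**
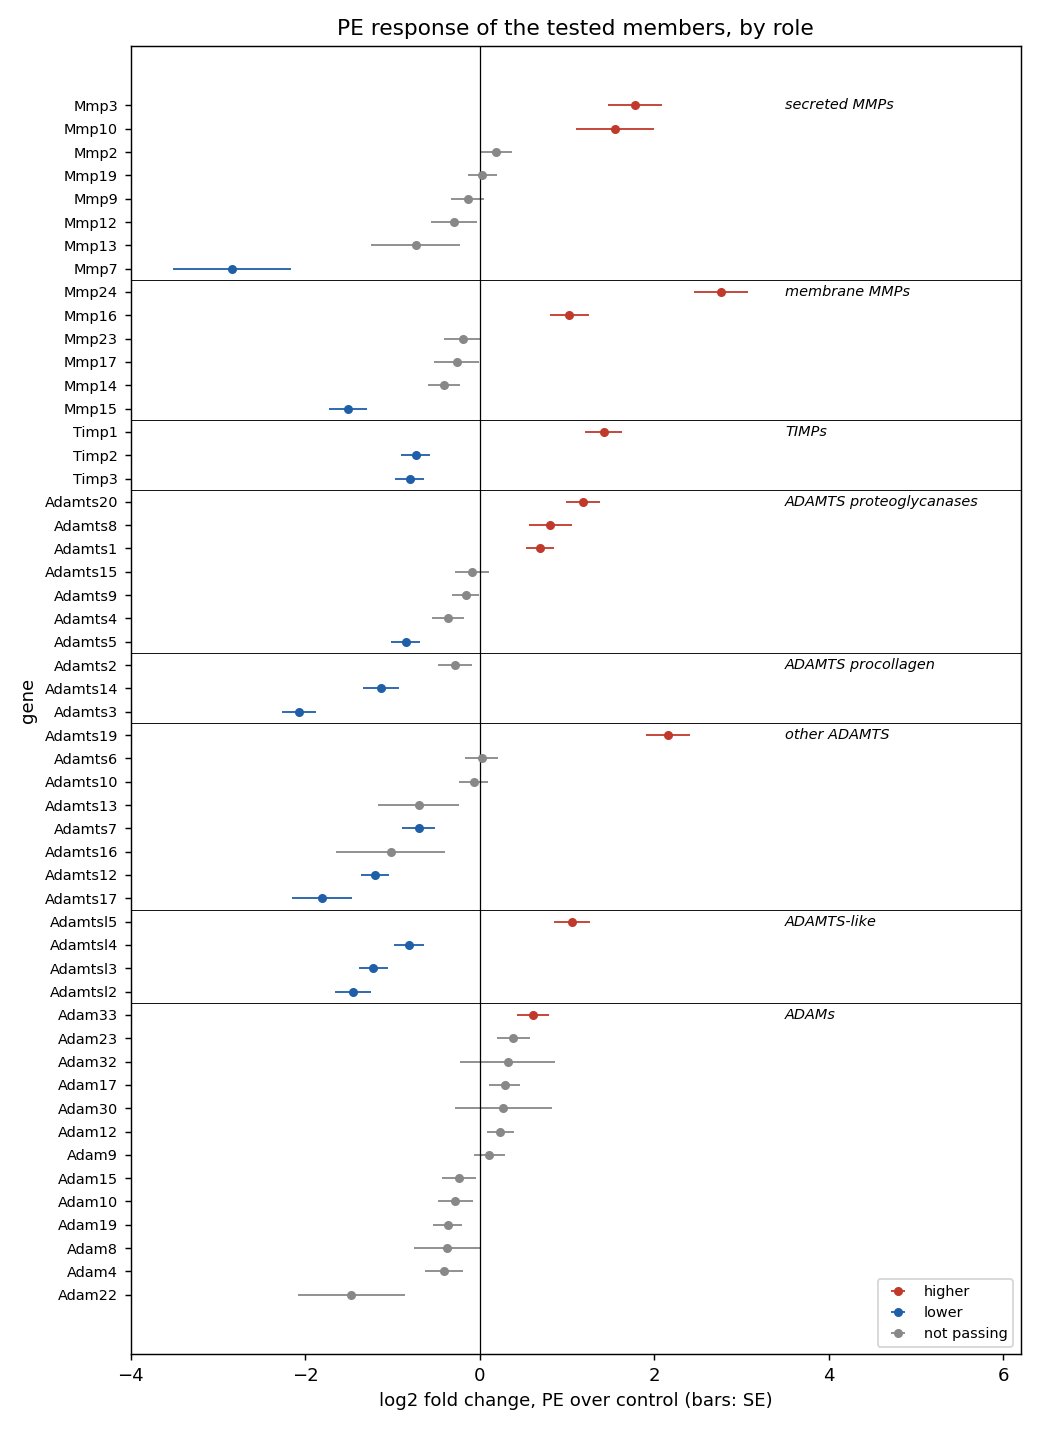
Log2 fold change of PE over control with its SE for the 52 tested members, grouped by role (red, rose; blue, fell; grey, did not pass). Of the 13 ADAMs 12 are grey, from -1.47 to 0.39, and 1, Adam33, is red at 0.61. TIMPs, ADAMTS and ADAMTS-like genes hold calls on both sides of 0.

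The ADAMTS proteoglycanases cut versican and aggrecan, and 3 of 7 rose while 1 fell. Adamts1 (ENSRNOG00000001607) was at 86.6 and 74.4 CPM in the controls and at 129.2 and 130.6 CPM with PE. Adamts5 (ENSRNOG00000057794), its direct neighbour in the genome, was at 60.3 and 53.6 CPM and at 32.1 and 31.1 CPM. The groups were apart in both genes, upward in Adamts1 and downward in Adamts5. The log2 fold changes were 0.69 ± 0.16 (adjusted p = 0.0165) and -0.85 ± 0.16 (adjusted p = 0.00588). Neither was called without P1 (0.70 and -0.87, adjusted p = 0.26 and 0.136) or without P2 (0.69 and -0.82, adjusted p = 0.263 and 0.168).

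Adamts20 (ENSRNOG00000033397), known for versican cleavage in skin and melanoblast development, was at 4.77 and 4.85 CPM in the controls and at 10.5 and 11.4 CPM with PE. It rose 2.28-fold (log2 fold change 1.19 ± 0.20, adjusted p = 0.00248), with small differences within the groups. Adamts8 (ENSRNOG00000005574) was at 24.4 and 13.9 CPM in the controls and at 33.9 and 33.3 CPM with PE. Its log2 fold change of 0.81 ± 0.24 passed narrowly (adjusted p = 0.0489). It was at 1.28 without C1 and at 0.47 without C2, and did not pass without P1 (adjusted p = 0.146) or P2 (adjusted p = 0.121), or under 3 other scalings (adjusted p = 0.0509 to 0.0567).

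The remaining proteoglycanases did not pass. Adamts4 was at 11.7 and 11.3 CPM in the controls and at 8.93 and 8.94 CPM with PE (log2 fold change -0.37 ± 0.19, adjusted p = 0.228). Adamts9 was at 94.6 and 94.2 CPM against 85.1 and 83.9 CPM, and Adamts15, the neighbour of Adamts8, at 14.3 and 11.5 CPM against 12.6 and 11.7 CPM. The PE libraries were slightly below the controls in Adamts4 and Adamts9, and the groups overlapped in Adamts15. The median of the 7 was -0.08, and 1 of them, Adamts20, was called without P1 or without P2.

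The procollagen N-proteinases remove the amino-terminal propeptide of fibrillar collagens, and 2 of 3 fell. Adamts3 (ENSRNOG00000027463), which also takes part in the activation of VEGF-C, was at 20.0 and 17.6 CPM in the controls and at 4.63 and 4.34 CPM with PE. The gap between the groups was far wider than that within them. The fall was 4.19-fold (log2 fold change -2.07 ± 0.20, adjusted p = 0.000104), and the value lay between -2.16 and -1.97 with any 1 library left out. Adamts14 (ENSRNOG00000000563) was at 22.8 and 16.4 CPM against 9.02 and 8.88 CPM, and fell by 1.13 ± 0.21 (adjusted p = 0.00471). Adamts2, which processes type I procollagen in skin, was at 225.2 and 154.8 CPM in the controls and at 147.1 and 165.7 CPM with PE. The groups overlapped, and the log2 fold change of -0.28 ± 0.20 (adjusted p = 0.401) was 0.02 without C1 and -0.52 without C2 (adjusted p = 0.00152).

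Among the other ADAMTS enzymes 3 fell and 1 rose. Adamts12 (ENSRNOG00000018865) and Adamts7 (ENSRNOG00000028036) are a related pair that cut cartilage oligomeric matrix protein. Adamts12 was at 122.0 and 141.0 CPM in the controls and at 58.6 and 56.1 CPM with PE, and fell by 1.20 ± 0.16 (adjusted p = 0.000836). Adamts7 was at 320.2 and 225.2 CPM against 162.5 and 173.4 CPM, with the controls well apart from each other. It fell by 0.70 ± 0.19 (adjusted p = 0.0339), was at -0.42 without C1, and did not pass without P1 (-0.65, adjusted p = 0.377) or P2 (-0.74, adjusted p = 0.252).

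Adamts17 (ENSRNOG00000037080), linked to fibrillin microfibrils, had 126 and 79 counts in the controls and 31 and 29 with PE. It fell by 1.81 ± 0.35 (adjusted p = 0.00553), or 3.5-fold. Adamts19 (ENSRNOG00000019577), a gene of heart valve development, had 130 and 74 counts in the controls and 528 and 414 with PE, or 2.42 and 1.62 against 9.41 and 8.77 CPM. The rise was 4.47-fold (log2 fold change 2.16 ± 0.25, adjusted p = 0.0003), and every PE library exceeded both controls. Adamts6 and Adamts10, also tied to fibrillin, were at 0.02 and -0.07, with overlapping groups. Adamts13, the von Willebrand factor protease, and Adamts16 had at most 34 counts in a library and did not pass, and Adamts18 had 5 counts in all.

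ADAMTS-like proteins have the matrix-binding part of ADAMTS enzymes without the protease, and all 4 in the table changed, of which 2 were called without P2. Adamtsl3 (ENSRNOG00000010840) was at 138.3 and 119.2 CPM in the controls and at 57.1 and 53.6 CPM with PE, and fell 2.33-fold (log2 fold change -1.22 ± 0.17, adjusted p = 0.00079). Adamtsl2 (ENSRNOG00000027742), which binds fibrillin and the latent TGF-beta binding protein, was at 15.5 and 12.3 CPM against 5.08 and 5.11 CPM, and fell 2.73-fold (-1.45 ± 0.21, adjusted p = 0.00103). The PE libraries nearly coincided in both genes.

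Adamtsl4 (ENSRNOG00000049385), of the fibrillin fibres that hold the eye lens, was at 56.3 and 48.7 CPM against 28.6 and 31.3 CPM. It fell by 0.81 ± 0.17 (adjusted p = 0.00872), a call lost without P1 (-0.74, adjusted p = 0.253) or P2 (-0.87, adjusted p = 0.128). Adamtsl5 (ENSRNOG00000033787) was the member of this group that rose, from 21.8 and 15.8 CPM to 34.9 and 43.4 CPM. The rise was 1.06 ± 0.21 (adjusted p = 0.00642), and without P2 it was 0.90 and did not pass (adjusted p = 0.0794).

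Of the 25 ADAMs, 11 had no count, 14 had at least 15 counts and 13 were tested, of which 1 rose and 12 did not pass (median 0.11). Over all tested genes 7.39% rose and 8.3% fell (median -0.006), and 1 rise in 13 genes is near that share. How many ADAMs were called moved with the library left out, as it did for all genes. Adam17 (ENSRNOG00000060694), the main sheddase of EGF receptor ligands and tumour necrosis factor, was at 108.6 and 137.9 CPM in the controls and at 160.9 and 140.2 CPM with PE. C2 and P2 were nearly level. The log2 fold change of 0.29 ± 0.18 did not pass (95% interval -0.11 to 0.68, adjusted p = 0.327). It was 0.13 without C1 and 0.47 without C2. Adam10 (ENSRNOG00000054257), the sheddase of Notch receptors and N-cadherin, was at 80.4 and 113.4 CPM in the controls and at 87.1 and 72.9 CPM with PE, with overlapping groups. The difference was -0.28 ± 0.20 (95% interval -0.72 to 0.16, adjusted p = 0.408). It was -0.50 without C1 and -0.006 without C2.

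Adam19 (ENSRNOG00000042980), a protease that acts on neuregulin and is needed for heart valves and septa, was at 1038 and 916.5 CPM in the controls and at 734.9 and 778.9 CPM with PE. The groups did not overlap, but the difference of -0.37 ± 0.17 did not pass (adjusted p = 0.18). It was -0.27 without C1 and -0.45 without C2. Adam33 (ENSRNOG00000021242), a gene known from asthma genetics, was the ADAM that rose, from 23.6 and 30.4 CPM to 39.8 and 42.7 CPM. The change of 0.61 ± 0.18 was close to the threshold (adjusted p = 0.0457). It did not pass without P1 (0.67, adjusted p = 0.29), without P2 (0.57, adjusted p = 0.42), under scaling by library size alone (0.0529, also an adjusted p) or with mitochondrial genes left out (adjusted p = 0.0512).

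Adam9, Adam12, Adam15 and Adam23 were at log2 fold changes of 0.11, 0.24, -0.24 and 0.39. Adam15 was at 0.02 without C1 and at -0.44 without C2, and Adam23 at 0.47 without C1 and at 0.31 without C2. Adam9 and Adam12 can release heparin-binding EGF, and Adam23 is a receptor of LGI proteins without protease activity. Adam12 was at 40.1 and 38.0 CPM in the controls and at 44.8 and 47.4 CPM with PE, slightly higher in both PE libraries. Adam22, also without protease activity, had 23 and 17 counts in the controls and 11 and 4 with PE, and was the member with an unadjusted p under 0.05 that did not pass (log2 fold change -1.47 ± 0.62, adjusted p = 0.144). Adam4 overlaps Cox16 and was at 4.13 to 5.97 CPM. Adam8, Adam30 and Adam32 stayed at or below 1.21 CPM, and Adam11 had 34 counts in all and was not tested. The ADAMs without a count include Adam2, Adam3a, Adam5, Adam7 and Adam18, genes of the male reproductive tract.

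How far the calls rest on single libraries differed between members. Of the 28 members that did not pass, 13 turned sign in at least 1 of the 4 fits that left out a library, and 12 passed in at least 1. Of those that changed, all 24 kept their sign with each library left out in turn, and 12 passed in each of the 4 fits. These were Mmp3, Mmp15, Mmp24, Timp1, Adamts3, Adamts12, Adamts14, Adamts17, Adamts19, Adamts20, Adamtsl2 and Adamtsl3. Of the 24, 22 passed without C1, 24 without C2, 13 without P1 and 14 without P2. Each of these fits leaves a group with 1 library, which is then assumed to vary like the libraries of the other group. In all 24 the groups did not overlap, so their sign could not turn with 1 library left out. The kept sign therefore says nothing further about these calls.

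**Figure D3:**
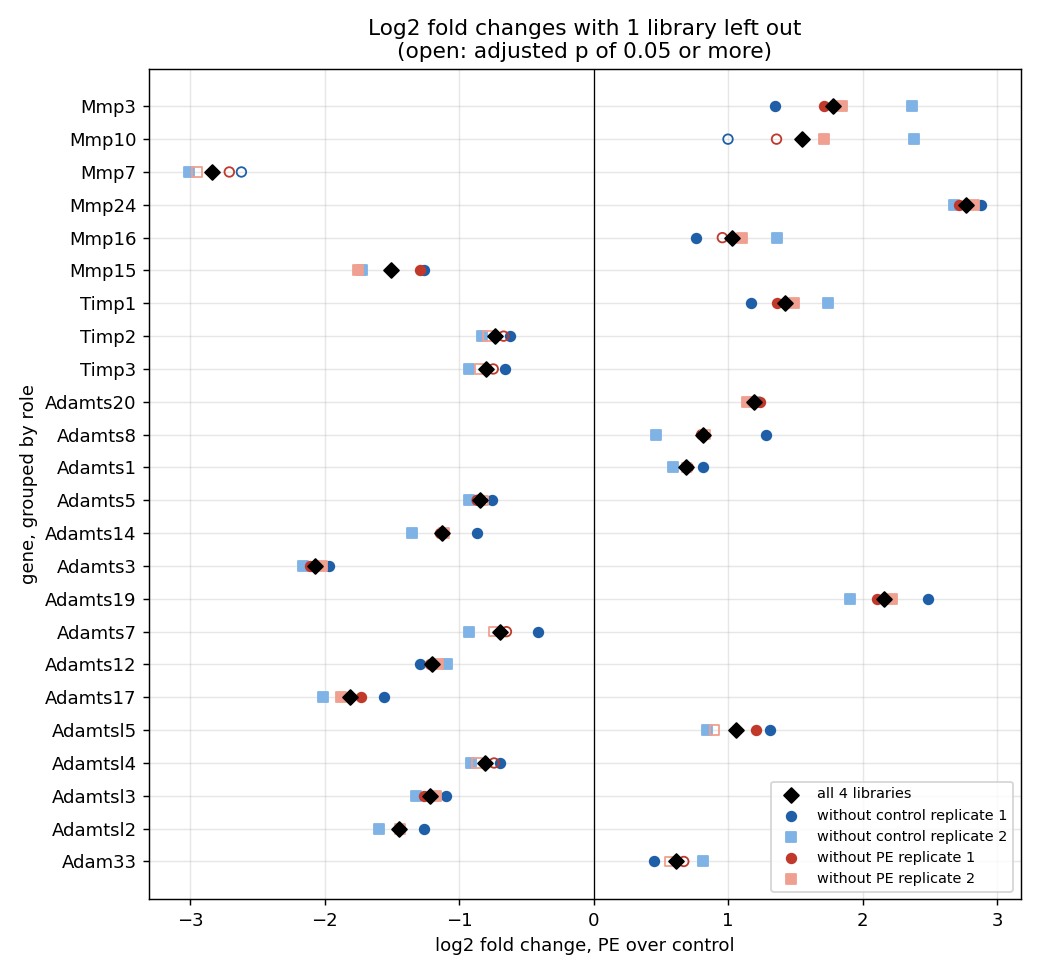
Log2 fold change of the 24 members with all 4 libraries (black diamonds) and with each library left out (coloured by the library left out; open symbols did not pass). The symbols stay on 1 side of 0 in each gene, which follows from groups that do not overlap. They spread widest in Mmp10, from 1.00 to 2.38.

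Genes that activate or restrain these proteases were followed in a list of 27 that are no members, 24 of them tested. Of these 4 rose, 2 fell and 18 did not pass (median 0.26). In all tested genes 7.39% rose and 8.3% fell, with a median of -0.006. The count called in the list moved with the library left out, as did that of all genes. Serpine2, the protease nexin that blocks thrombin and plasminogen activators, was at 64.8 CPM in each control and at 182.6 and 158.8 CPM with PE (log2 fold change 1.40 ± 0.16, adjusted p = 0.00032). Both PE libraries were well above the controls. Plg, the plasminogen gene, was scarce, at 0.280 and 0.219 CPM in the controls and 1.02 and 1.10 CPM with PE (2.07 ± 0.45, adjusted p = 0.011). Papln, papilin, an ADAMTS-like matrix protein, was at 0.689 and 0.373 CPM against 0.0713 and 0.0847 CPM. It is 1 of the 2 counted as lower, but reached the count filter, at 0.2 CPM, in the controls alone, so it was tested only because it was higher there. Furin, the convertase that activates many members, was at 509.9 and 369.7 CPM against 514.8 and 610.2 CPM, and Reck, a membrane inhibitor of MMPs, at 32.4 and 25.8 CPM against 29.3 and 31.0 CPM. Neither passed.

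Of 26 matrix substrates 23 were tested, and 4 rose, 4 fell and 15 did not pass (median 0.14). The shares over all tested genes were 7.39% higher and 8.3% lower (median -0.006). Here too the count called moved with the library left out, as did that of all genes. Vcan, versican, the proteoglycan cut by Adamts1, Adamts5 and Adamts20, rose from 257.8 and 376.9 CPM to 855.5 and 726.6 CPM (1.32 ± 0.21, adjusted p = 0.00204). Col3a1, a fibrillar collagen chain, went from 7841 and 6076 CPM to 2603 and 2843 CPM (-1.35 ± 0.20, adjusted p = 0.00118), the same direction as Adamts3 and Adamts14. Col3a1 is also among the fibroblast markers. Eln, elastin, went from 832.6 and 513.1 CPM to 279.4 and 374.0 CPM (-1.04 ± 0.24, adjusted p = 0.0157), and did not pass without P1 (adjusted p = 0.167). Col2a1, the collagen of cartilage, was scarce, at 0.783 and 0.439 CPM against 0.0356 and 0.148 CPM. It is 1 of the 4 counted as lower, but reached the count filter of 0.2 CPM in the controls alone, so it was tested only because it was higher there.

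Of 28 shed ligands and receptors 24 were tested, and 7 rose, 4 fell and 13 did not pass (median 0.17). Over all tested genes 7.39% rose and 8.3% fell (median -0.006). This list's count also moved with the library left out, as did that of all genes. Hbegf, the heparin-binding EGF-like ligand, was at 12.6 and 9.37 CPM in the controls and at 74.2 and 79.2 CPM with PE, a log2 fold change of 2.80 ± 0.20 (adjusted p = 2.2e-05). Ereg, epiregulin, rose from 4.32 and 4.61 CPM to 15.3 and 10.8 CPM (1.55 ± 0.23, adjusted p = 0.00122). These 2 ligands rose while the log2 fold changes of the sheddases Adam10, Adam12 and Adam17 did not pass with all 4 libraries. With 1 library left out, Adam10 ranged from -0.50 to -0.006 and Adam17 from 0.13 to 0.47. Ptprz1, a receptor phosphatase, rose from 4.29 and 5.75 CPM to 12.5 and 11.6 CPM (1.26 ± 0.22, adjusted p = 0.003). Kl, the klotho gene, had 0 and 2 counts in the controls and 30 and 25 with PE, too few in the controls for a fold. It is 1 of the 7 counted as higher, but reached the count filter with PE alone.

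**Figure D4:**
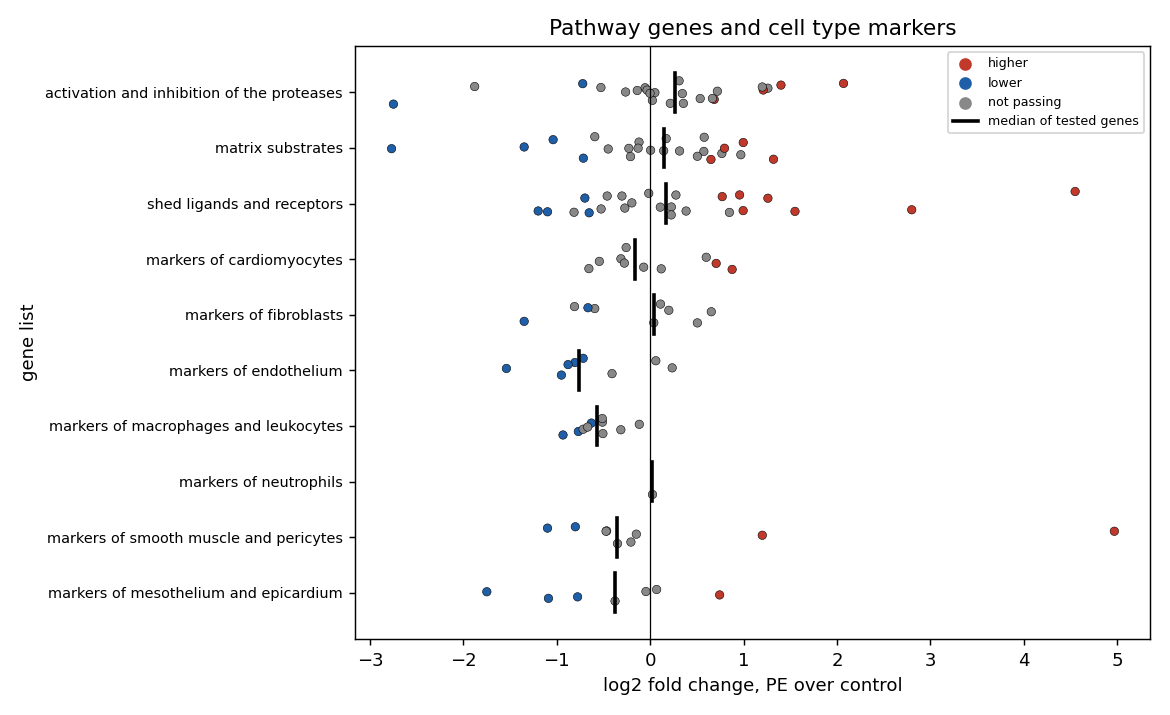
Log2 fold change of PE over control for the tested genes of the pathway and marker lists (red, rose; blue, fell; grey, did not pass; black bar, median of the list). The point farthest to the right among the shed ligands is Kl, whose controls held 0 and 2 counts; endothelial markers have a median of -0.76 and macrophage and leukocyte markers one of -0.57.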

How the data were processed

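Per the submitters' processing notes, cutadapt 2.0, STAR 2.4.2a and featureCounts 1.6.4 were used with build Rnor_6.0. Annotation release, parameters, strand setting and the handling of reads that match several genes are not stated in those notes or the labels. The authors deposited raw counts per gene. Their second deposited table gives, per the file headers, a mean normalized count as a signal, a log2 fold change with its error, a test statistic (a score), a p-value and its adjusted form, with gene names and types. A DESeq2 1.42.0 fit of the counts gave all 20666 of its log2 fold changes within 1e-06.

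Counts were fitted as deposited with edgeR 4.0.16 (limma 3.58.1, R 4.3.3), by its quasi-likelihood F test of PE against control with TMM factors of 0.9822 to 1.034 and its default filter (minimum count 10, minimum total 15). This kept 15257 of 32883 genes, with a biological coefficient of variation of 0.157. Benjamini-Hochberg adjustment ran over all tested genes, and intervals are at 95%. CPM are counts scaled by TMM-adjusted library sizes. The script was tested on simulated data. Gene lengths of this build were not used, so levels were compared within genes only. Where a symbol had several identifiers, the most abundant was taken.

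Members and lists were chosen with earlier results of these data known. Text names each called member, a fixed set (the TIMPs, Mmp2, Mmp9, Mmp14, Adam10, Adam17, Adamts1, Adamts4, Adamts5), the most abundant member of each role and up to 4 called genes of each pathway list with the largest log2 fold change. Others, such as Mmp12, Furin and Reck, were chosen after their values were seen. Some results are not reported here. Promoters matched 50 of 74 members by symbol.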

Additional observations from a re-analysis of the deposited data

How the results depend on the processing

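The 4 libraries limit every statement: with 1 left out, only the other group gives a spread, and the controls lay farther apart than the PE libraries. Members higher ranged from 6 to 12 and members lower from 7 to 19 over the 4 fits that left out a library, and all genes changed from 1205 to 4755. By role, the counts called ranged from 1 to 4 for proteoglycanases, 2 to 4 for ADAMTS-like genes, 0 to 4 for ADAMs, 1 to 3 for TIMPs, 2 to 6 for membrane-anchored MMPs, 1 to 4 for secreted MMPs, 2 to 3 for procollagen N-proteinases and 3 to 4 for other ADAMTS enzymes. In the pathway lists they ranged from 3 to 10 for activation and inhibition, 3 to 14 for substrates and 7 to 15 for shed ligands and receptors. Log2 fold changes ranged from -0.524 to 0.0207 for Adamts2 and from -0.305 to 0.0594 for Mmp9, positive without control replicate 1 and negative with all libraries. Adamts10, Adamts15, Adam15, Mmp17 and Mmp23 turned positive, and Adamts6 and Adam9 negative, in the same fit, Mmp12 turned positive without control replicate 2, and Adamts6, Adam30, Adam32 and Mmp19 turned negative without PE replicate 2. None of these 13 members passed with all libraries.

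With all 4 libraries, DESeq2 size factors, library sizes alone, no filter, DESeq2 and mitochondrial genes left out gave 9 to 11 members higher and 12 to 13 lower. The ADAM call (Adam33) fell to 0 with library sizes alone and with mitochondrial genes left out. Replicate numbers are shared by the groups, but nothing says that they pair cultures, and replicate differences correlated at -0.229 across genes. With a replicate block, 9 members were higher, 12 lower and 1964 genes changed in all; Adam33, Adamts1 and Adamts7 did not pass, which left 0 ADAMs.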
